A study of Mus musculus with 7 samples.

Results

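The RelB antibody was used on mouse bone marrow-derived dendritic cells (BMDCs) labelled as RelB knockout (RelBko). What it precipitated there is taken as signal without its target. The wording "without RelB" follows the label, and the loss of RelB was not checked in these data. The material described here is the pair of RelBko RelB ChIP-seq libraries, at 0 h and at 1 h of lipopolysaccharide (LPS), with the input library as background, 3 of the 7 libraries of the series. They were taken because the labels give RelBko as the genotype and anti-RelB as the antibody, and all 93611 deposited regions were used. The question of the series is what happens to RelA on chromatin when RelB is missing. Its other libraries are RelB ChIP in wild-type (WT) cells at 0 h and 1 h and RelA ChIP in both genotypes at 1 h. All cells were from C57BL/6 mice and were derived from marrow with 20 ng/ml GM-CSF plus 10 ng/ml IL-4. The 0 h cells had no treatment, and the 1 h cells received 10 ng/mL LPS. The input came from WT cells, with no time or treatment in the labels, so the RelBko signal was set against the background of another genotype. Each group held 1 library, so no difference has a replicate check and no p-value is given. How the RelBko allele was made is not given in the sources used here.

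RelB is a DNA-binding subunit of the NF-kB family. It pairs mainly with p52 or p50, is the main effector of noncanonical NF-kB signalling, and is abundant in maturing dendritic cells. RelA, Rel and RelB share the Rel homology domain, which contacts the kB motif, and LPS acts through Toll-like receptor 4 to free RelA and Rel from their IkB inhibitors. In ChIP, a knockout sample shows what an antibody, the beads and open, easily sheared chromatin give without the antigen.

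Promoters held RelBko signal more often than introns and intergenic regions, so 5 of their sequences are shown before the values. Of 9193 genes with a region within 250 bp of a transcription start site (TSS), 7407 were found by symbol in a RefSeq promoter table (build GRCm38.p6, from 250 bp before to 50 bp after the start) and 5855 had a single promoter there. Nfkbia, which encodes the NF-kB inhibitor IkB-alpha, Tgfb1, which encodes a growth factor that restrains immune cells, and Cltc, which encodes the clathrin heavy chain, had the highest 0 h signal among these promoters. Hs3st1, which encodes a heparan sulfate sulfotransferase, had the highest 0 h signal relative to WT RelB among promoters of 5 RPKM or more (reads per kilobase of region, scaled to library size), and Traf3, which encodes an adaptor that restrains noncanonical NF-kB signalling, had the lowest. Sequences run 5′ to 3′ in the direction of the gene, and capitals mark matches to the kB consensus on either strand.
Nfkbia: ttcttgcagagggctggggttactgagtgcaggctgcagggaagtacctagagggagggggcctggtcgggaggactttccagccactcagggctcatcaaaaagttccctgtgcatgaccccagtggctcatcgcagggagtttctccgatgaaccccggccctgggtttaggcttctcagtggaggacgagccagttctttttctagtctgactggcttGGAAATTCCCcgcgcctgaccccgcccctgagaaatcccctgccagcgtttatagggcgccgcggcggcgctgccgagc
Tgfb1: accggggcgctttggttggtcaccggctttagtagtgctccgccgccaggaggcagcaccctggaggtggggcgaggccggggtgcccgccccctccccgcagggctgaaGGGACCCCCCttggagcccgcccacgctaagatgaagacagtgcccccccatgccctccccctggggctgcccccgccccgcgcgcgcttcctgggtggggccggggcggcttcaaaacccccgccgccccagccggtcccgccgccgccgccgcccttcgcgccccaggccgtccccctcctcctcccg
Cltc: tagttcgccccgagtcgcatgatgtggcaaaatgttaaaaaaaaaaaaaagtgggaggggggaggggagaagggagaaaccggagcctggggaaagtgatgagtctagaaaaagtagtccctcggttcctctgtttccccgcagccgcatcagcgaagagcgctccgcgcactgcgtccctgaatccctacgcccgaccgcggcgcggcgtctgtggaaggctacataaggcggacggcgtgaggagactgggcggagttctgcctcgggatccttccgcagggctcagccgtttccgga
Hs3st1: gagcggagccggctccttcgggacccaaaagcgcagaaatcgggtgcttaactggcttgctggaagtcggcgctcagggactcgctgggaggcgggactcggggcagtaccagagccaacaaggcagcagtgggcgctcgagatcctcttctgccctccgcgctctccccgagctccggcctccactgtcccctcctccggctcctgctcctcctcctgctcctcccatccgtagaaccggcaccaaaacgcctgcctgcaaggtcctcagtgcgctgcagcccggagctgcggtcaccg
Traf3: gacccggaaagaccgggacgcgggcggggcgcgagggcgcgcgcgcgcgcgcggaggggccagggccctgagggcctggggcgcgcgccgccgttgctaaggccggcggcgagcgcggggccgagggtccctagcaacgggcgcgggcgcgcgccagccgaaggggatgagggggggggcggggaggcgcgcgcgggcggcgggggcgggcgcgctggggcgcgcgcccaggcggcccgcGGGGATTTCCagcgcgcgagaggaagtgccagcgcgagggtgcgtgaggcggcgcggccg

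These windows lie at chr12:55492598-55492897 on the minus strand (Nfkbia), chr7:25686752-25687051 on the plus strand (Tgfb1), chr11:86757518-86757817 on the minus strand (Cltc), chr5:39644582-39644881 on the minus strand (Hs3st1) and chr12:111166120-111166419 on the plus strand (Traf3), in GRCm38.p6. The deposited regions are in mm9 and were joined to them by symbol only. Nfkbia held 23.8 RPKM in RelBko at 0 h and 9.84 RPKM at 1 h, with 328 and 207 RPKM for RelB in WT and 1.87 RPKM in the input. Traf3 held 10.5 and 5.92 RPKM in RelBko with 244 and 121 RPKM in WT, and Hs3st1 held 5.41 and 0.554 RPKM with 3.55 and 5.32 RPKM in WT. The promoters of Nfkbia, Tgfb1 and Traf3 each hold 1 kB match and those of Cltc and Hs3st1 hold none, while Cltc had 16.2 RPKM at 0 h. Signal without RelB was thus recorded at promoters with and without these letters.

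Over the 5855 promoters, those enriched in RelBko at 0 h were richer in CpG than those enriched at neither time. A region was called enriched when it held at least 2 RPKM and exceeded the input at least 2-fold on the scale of log2(RPKM + 0.5). The median number of CpG was 19 in the 2698 promoters enriched at neither time, 24 in the 2546 enriched at 0 h only and 26 in the 585 enriched at both times, against 7 over all 32851 promoters of the table. The GC box (GGGCGG, either strand) was present in 61.0%, 72.1% and 78.6% of these groups, against 35.7% of all promoters. The kB consensus was present in 10.97%, 11.9% and 16.2%, against 8.46%, and its looser form (GGGNNNNNCC, which the consensus overlaps) in 67.3%, 73.6% and 77.6%, against 50.8%. The CCAAT box (CCAAT, either strand) went the other way, at 39.4%, 36.7% and 31.1%, against 37.4%. WT RelB signal moved with these groups too, with medians of 5.81, 11.3 and 18.1 RPKM at 0 h. The remaining 26 promoters, enriched at 1 h only, went the other way in CpG, with a median of 15.5, and held a kB match in 19.2%. Among promoters of 10 to 20 RPKM for RelB in WT, the 1308 enriched in RelBko at 0 h held a median of 26 CpG and a kB match in 12.5%, and the 469 that were not held 21 CpG and a match in 13.2%. At 20 to 50 RPKM, the 588 enriched held a median of 25 CpG and a match in 20.2%, and the 86 that were not held 15 CpG and a match in 16.3%. At 5 to 10 RPKM, the 951 enriched held a median of 22 CpG and a match in 7.57%. The 1033 that were not held 20 CpG and a match in 9.78%. The CpG count was higher in the enriched promoters of each band. Their kB share was lower at 5 to 10 and at 10 to 20 RPKM and higher at 20 to 50 RPKM, where only 86 promoters were not enriched. From the lowest band up, input medians were 1.12, 1.32 and 1.45 RPKM in the enriched promoters and 1.56, 1.91 and 1.98 RPKM in the others. WT RelB medians at 0 h were 7.61, 13.8 and 26.8 RPKM against 6.91, 12.6 and 26.2 RPKM. The part of input and WT signal in the CpG difference was not tested.

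Without RelB, antibody signal over input was found at 22528 regions at 0 h (24.1% of all regions) and at 5957 at 1 h (6.36%). WT RelB was enriched at 75.9% of regions at 0 h and 81.7% at 1 h. Of the RelBko library's reads, 7.41% lay in the regions at 0 h and 4.62% at 1 h, against 3.52% in the input and 37.2 to 42.4% in the other ChIP libraries. The libraries held 17485035 reads at 0 h, 19498468 at 1 h and 13188833 in the input, with medians of 10, 8 and 4 reads per region, so single weak regions rest on few reads. Every RPKM value was a whole multiple of what 1 read is worth, and no region was listed below 1 read, so read numbers may be 1 too high. The regions enriched at 1 h were mostly a part of those at 0 h: 5083 were shared, which is 85.3% of the 1 h set and 22.6% of the 0 h set, and 874 were enriched at 1 h alone. Just above the limit, 1257 regions at 0 h of under 1.1 times the minimum RPKM had a median of 14 reads against 3 in the input, and just below it, 1185 regions 2-fold over input had a median of 12 reads.

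**Figure D1:**
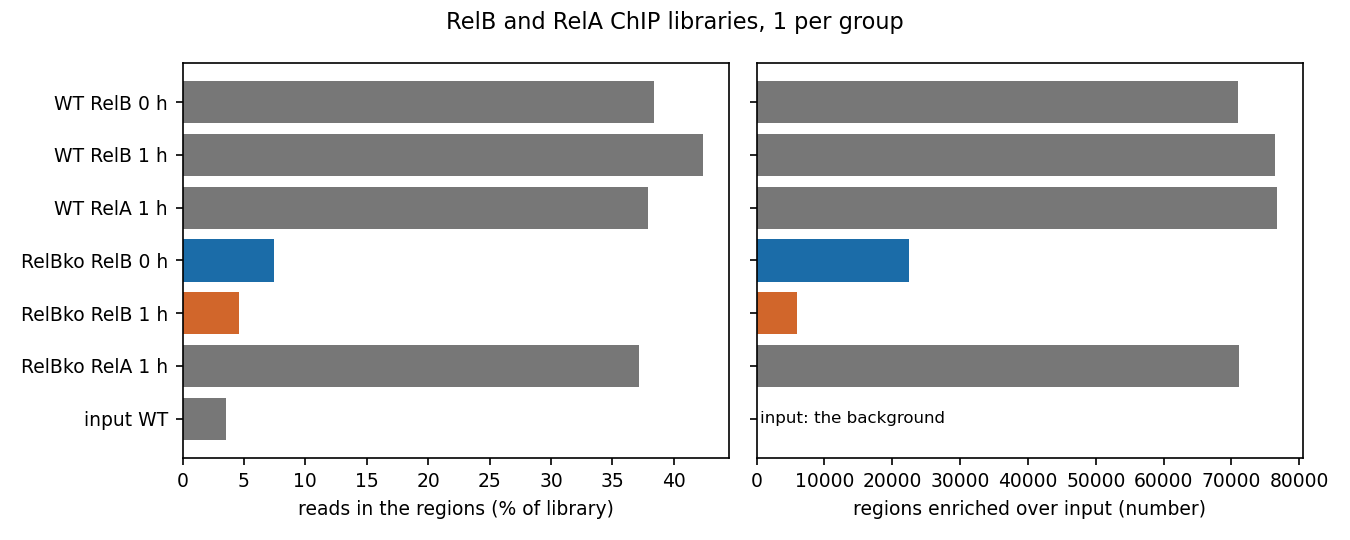
Share of each library's reads that lay in the regions (left, percent) and number of regions enriched over input (right, number), 1 library per group and no error bars. RelBko RelB at 0 h (blue) and 1 h (orange) lie between the input and the other ChIP libraries, with 7.41% and 4.62% of reads in the regions.

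Regions with RelBko signal were nearly all regions where RelB and RelA signal was present in cells that have these proteins. At 0 h, 97.2% of the enriched regions were also enriched for RelB in WT at 0 h, and at 1 h 97.8% were for RelB in WT at 1 h. The WT shares over all regions were 75.9% and 81.7%. RelA in RelBko, enriched at 75.9% of all regions, was enriched at 97.2% of the 0 h set and 97.6% of the 1 h set. Among the regions enriched in RelBko, 294 at 0 h and 92 at 1 h were enriched in none of the 4 other ChIP libraries. Of all 93611 regions only 3628 were enriched in no ChIP library, so the region set itself left little room for regions without overlap. Regions 2-fold or more above WT RelB numbered 361 at 0 h (1.6% of the enriched) and 98 at 1 h (1.65%). Across the 93611 regions, which share depth within a library and differ in base composition, Spearman's rho of RelBko 0 h signal was 0.70 with WT RelB at 0 h, 0.73 with RelA in RelBko and 0.44 with the input. At 1 h it was 0.62 with WT RelB of that time, 0.67 with RelA in RelBko and 0.37 with the input, and between both RelBko RelB libraries it was 0.60.

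The share of regions enriched in RelBko was higher where WT RelB signal was higher. At 0 h it was 4.39% where WT RelB was under 5 RPKM, 20.0% at 5 to 10, 43.5% at 10 to 20, 66.7% at 20 to 50, 83.5% at 50 to 100 and 94.7% above 100 RPKM. At 1 h, by the WT RelB signal of 1 h, these shares were 0.601%, 1.48%, 6.41%, 20.5%, 46.9% and 72.5%. As a fraction of WT the RelBko signal was lower in each higher bin at 0 h. Summed and with input taken off, it was 19.5% of WT under 5 RPKM and 5.29% above 100 RPKM, and 10.9% over all regions enriched in WT. At 1 h it was 2.70% over the regions enriched in WT, with 0.782% at 5 to 10 RPKM and 2.94% above 100 RPKM. The 20 to 50 RPKM bin of 1 h, at 3.83%, rests in part on the Fam172a region described below and was 3.11% without it. Both percentages depend on the scale: equal signal in unenriched regions gave 21.0% at 0 h and 4.55% at 1 h, and no input subtraction gave 17.6% and 9.75%.

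Promoters held more RelBko signal than introns and intergenic regions at 0 h, also at like WT signal. They made up 23.8% of the regions enriched at 0 h (95% Wilson interval 23.3 to 24.4%, counting error only) and 20.1% at 1 h (19.1 to 21.2%), against 10.96% of all regions and 13.1% of those enriched for RelB in WT at 0 h. Among the 874 regions enriched at 1 h alone they were 7.55%. At 0 h 52.3% of promoters were enriched, with 20.7% of introns and 19.3% of intergenic regions, and at 1 h these shares were 11.7%, 5.68% and 5.67%. The share at 0 h went down with distance from the TSS, from 53.7% within 250 bp to 14.4% beyond 100 kb. At 10 to 20 RPKM for RelB in WT, 71.7% of promoters and 32.6% of intergenic regions were enriched at 0 h, with a RelBko signal of 24.7% and 9.54% of WT. In the same band at 1 h, 11.7% and 4.72% were enriched, with 4.43% and 1.98% of WT. Above 50 RPKM the classes lay close together, with 88.7% and 83.7% enriched at 0 h at 50 to 100 RPKM. Input was also higher at promoters, with a median of 1.27 RPKM against 0.862 RPKM in intergenic regions, and its part in the difference was not tested.

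**Figure D2:**
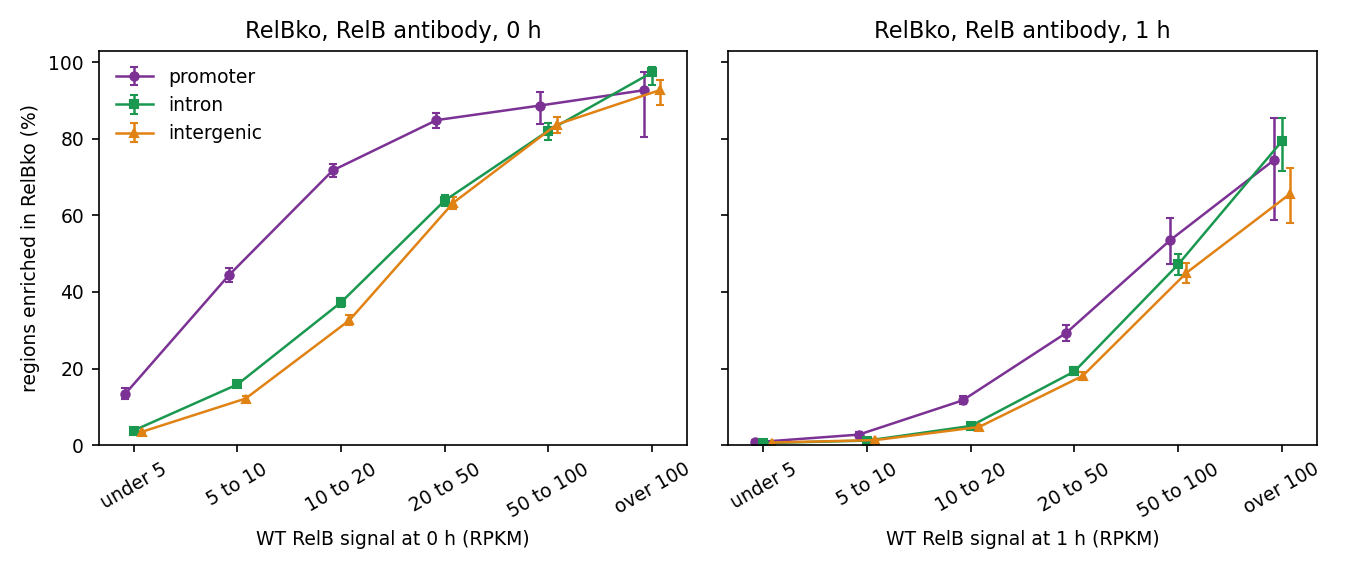
Percent of regions enriched in RelBko with the RelB antibody at 0 h (left) and 1 h (right), by the RelB signal of the same region in WT cells of that time (RPKM bins) and by class of region. Bars are 95% Wilson intervals, which cover counting error only. Promoters lie above introns and intergenic regions up to 50 RPKM at 0 h, and all classes are lower at 1 h.

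RelA signal moved with RelBko RelB antibody signal among regions of like WT RelB signal. Regions of 20 to 50 RPKM for WT RelB at 0 h were divided into 4 equal groups by RelA signal in RelBko at 1 h, with group medians of 10.9, 19.6, 28.5 and 43.8 RPKM. In these groups 37.0%, 65.3%, 77.3% and 87.3% of regions were enriched with the RelB antibody in RelBko at 0 h. Groups formed likewise at 1 h had 6.03%, 14.0%, 23.8% and 38.1%. At 10 to 20 RPKM the 0 h shares were 17.5%, 37.5%, 53.2% and 66.1%, and the 1 h shares were 1.12%, 3.9%, 6.48% and 14.1%. The promoter share, 3.68% in the lowest and 22.1% in the highest group of the first set, the input median, 1.01 and 1.42 RPKM, and the WT RelB median, 25.3 and 33.6 RPKM, moved along. Their part in the pattern was not tested.

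**Figure D3:**
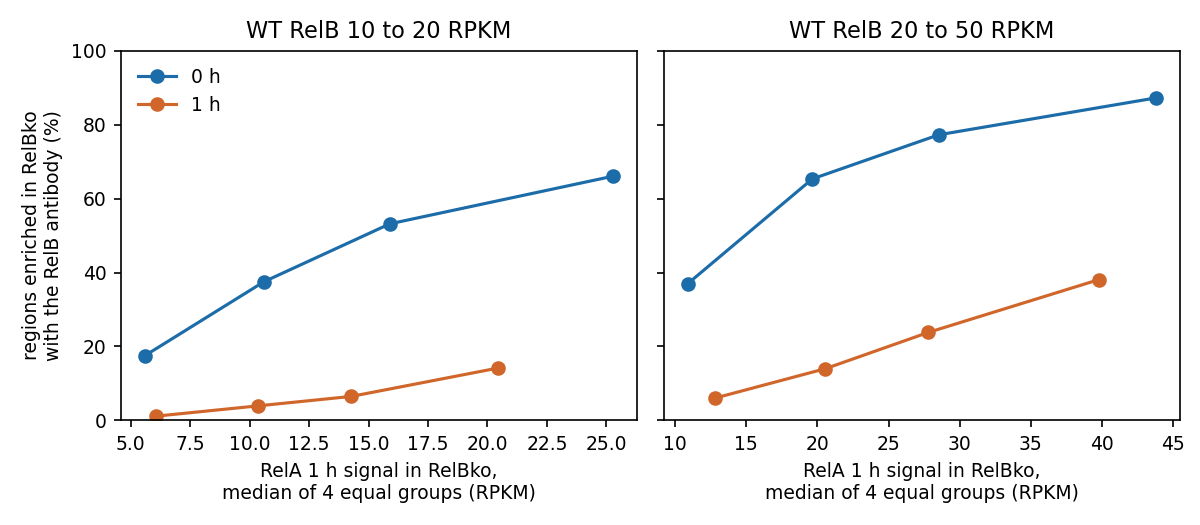
Percent of regions enriched in RelBko with the RelB antibody at 0 h (blue) and 1 h (orange), by RelA 1 h signal in RelBko (x axis, median RPKM of each of 4 equal groups), for regions of 10 to 20 (left) and 20 to 50 RPKM (right) of WT RelB. Each line goes up from the lowest to the highest RelA group, to 87.3% at 0 h and 38.1% at 1 h in the right panel.

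The X chromosome held RelBko signal less often than any autosome. There 13.3% of 2399 regions were enriched at 0 h and 2.13% at 1 h, while single autosomes had 20.9 to 27.1% at 0 h and 5.71 to 7.13% at 1 h. WT RelB on X, enriched at 72.7% of regions at 0 h against 73.6 to 77.3% on autosomes, had a lower median there (3.94 against 5.53 RPKM over the autosomes). The input median on X was 0.724 RPKM against 0.914 RPKM on the autosomes. The part of the lower input and the lower WT signal was not tested.

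At 1 h the RelBko signal was lower at most regions that held any. Of 23402 regions enriched at 0 h or 1 h, 10315 had fallen 2-fold or more by 1 h (44.1%) and 202 had risen 2-fold or more (0.863%). The median log2 ratio was -0.93, and 80% of ratios lay between -1.58 and -0.24. Median signal was 3.99 and 1.96 RPKM at the respective times, against 1.0 RPKM in the input. For 9939 of the lower and 153 of the higher regions the exact 95% (Clopper-Pearson) interval of the ratio of reads, which covers counting error only, excluded 1. These regions had already passed 2-fold on the same reads, so the intervals do not check the fall. Regions had to be enriched at 1 of the times to be compared, and the 5083 enriched at both times had a smaller median of -0.59, with 944 lower and 7 higher. Over the regions enriched for RelB in WT at both times, which RelBko values did not choose, 79.6% of ratios were below 0, with a median of -0.54. Setting the median of the compared regions to 0 left 667 lower and 1249 higher. That setting takes out any shift shared by the regions by construction, so it cannot check the direction. Scaling on 3628 regions enriched in no ChIP library moved log2 ratios by -0.13 and gave 13471 lower and 154 higher. A weaker pull-down at 1 h and less antibody signal in the cells cannot be told apart with 1 library each.

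**Figure D4:**
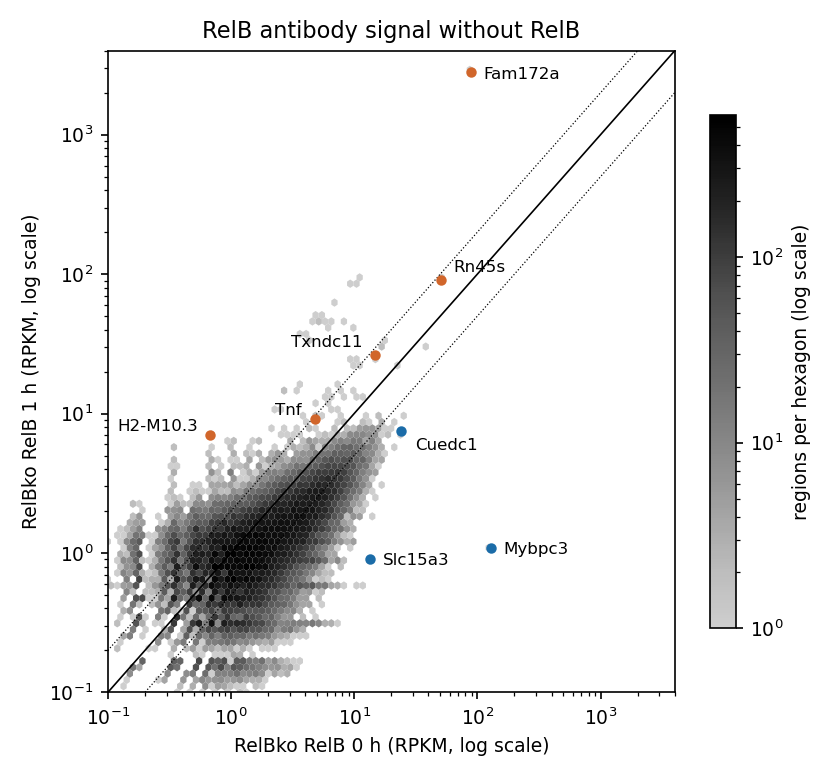
RelBko RelB signal at 0 h (x axis) and at 1 h (y axis) over all regions, both in RPKM on log scales, with grey hexagons shaded by the number of regions and named regions as points. The solid line marks equal values and the dotted lines 2-fold differences in RPKM. Most regions above a few RPKM lie below the solid line, and Fam172a and Mybpc3 stand alone. The loose unlabelled group at the upper left of Rn45s holds the runs of regions at Abr and E030024N20Rik, which were high in the input and not enriched.

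Where RelB in WT was higher at 1 h, the RelBko signal was lower by less. Among compared regions, the median log2 ratio in RelBko was -1.03 in the 169 regions where WT RelB was 2-fold or more lower at 1 h, -1.02 in the 1583 that were 1.4- to 2-fold lower, -0.97 in the 17574 where it stayed within 1.4-fold, -0.72 in the 3011 that were 1.4- to 2-fold higher and -0.28 in the 1065 that were 2-fold or more higher. Of the last group 54.9% were enriched in RelBko at 1 h, against 23.1% of those within 1.4-fold. Among the regions enriched in WT at either time, which RelBko values did not choose, these medians were -0.34, -0.48, -0.58, -0.31 and -0.08, so the order held for the last 3 groups and not for both groups in which WT RelB was lower. In the compared regions the WT RelB level at 1 h also differed between these groups, with medians of 11.4, 14.4, 18.4, 23.5 and 26.2 RPKM. The last group started lowest in RelBko, with a 0 h median of 2.72 RPKM against 4.18 RPKM within 1.4-fold. Among regions enriched in WT at either time these were 1.06 and 1.97 RPKM, with 9.03% and 33.6% enriched at 0 h. The input median of that last group was 0.822 RPKM. The group 2-fold or more lower in WT had a 0 h RelBko median near that of the last group, at 1.11 RPKM. The part of the 0 h level was not tested. The region at -623 bp from the start of Tnf, which encodes the cytokine TNF (promoter, chromosome 17, 35339492 to 35339659, mm9 as for all regions below), went from 4.77 RPKM at 0 h to 9.16 RPKM at 1 h in RelBko, from 14 and 30 reads, with 2.26 RPKM in the input. RelB in WT was 53.6 and 112 RPKM there. Its ratio in RelBko was 1.92 (95% interval 0.988 to 3.92), under 2-fold on the log2 scale.

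Among the strongest regions in RelBko at 0 h were those at Nfkbia and at the cytokine kinase gene Jak2, beside genes of other functions. At the promoter of Nfkbia (-94 bp, chromosome 12, 56593546 to 56593910), signal fell from 23.8 RPKM (152 reads) to 9.84 RPKM (70 reads), a ratio of 0.413 (95% interval 0.307 to 0.552). A second Nfkbia region in an intron (728 bp, chromosome 12, 56592729 to 56593084) fell from 20.6 to 5.62 RPKM, while WT RelB there was 326 and 102 RPKM. An intron of Cuedc1, which encodes a protein with a CUE domain (8445 bp, chromosome 11, 87920915 to 87921271), fell from 23.9 to 7.47 RPKM (ratio 0.313, 0.224 to 0.432). In an intron of Mllt10, a partner gene in leukaemia translocations (1013 bp, chromosome 2, 17978193 to 17978543), values were 22.0 and 8.33 RPKM. The promoter of Jak2 (-391 bp, chromosome 19, 29325726 to 29326078), fell from 19.8 to 7.55 RPKM. That of Etv6, which encodes an ETS repressor (-477 bp, chromosome 6, 133985014 to 133985468), fell from 19.1 to 6.76 RPKM. These regions were picked by their 0 h signal, which favours a fall, and had 1.06 to 1.87 RPKM in the input. Of the 10 highest regions at 0 h, those at Fam172a and Rn45s, described below, and at Dux (22.8 and 22.9 RPKM) were not lower at 1 h.

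The 10 highest genes at 0 h also held Skil and Mob3a. The promoter of Skil, which encodes the SMAD corepressor SnoN (-117 bp, chromosome 3, 30993779 to 30993948), fell from 17.8 to 7.24 RPKM (ratio 0.406, 0.240 to 0.669). An intron of Mob3a, a kinase activator gene (5570 bp, chromosome 10, 80158822 to 80159169), had 17.4 and 8.84 RPKM, with a log2 ratio of -0.94. Skil and Mob3a were enriched at both times.

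At 1 h the highest enriched genes included regions with much input. Rn45s, the 45S ribosomal RNA gene (non-coding class, chromosome 17, 39981007 to 39981314), had 50.7 and 90.1 RPKM at 0 h and 1 h, with 17.97 RPKM in the input. A region of intron class upstream of Txndc11, a thioredoxin domain gene (-9595 bp, chromosome 16, 11144052 to 11144389), had 14.9 and 26.1 RPKM with 6.06 RPKM in the input. Kpna1, an importin gene (intergenic, -1620 bp, chromosome 16, 35981661 to 35981998), had 8.46 and 13.4 RPKM with 2.69 RPKM in the input. None of these 3 reached 2-fold on the log2 scale. The promoter of Bhlhe40, which encodes a transcriptional repressor (-195 bp, chromosome 6, 108610345 to 108610512), had 16.00 and 10.1 RPKM with 0.451 RPKM, 1 read, in the input.

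The 5 regions with Relb as their nearest gene lay on chromosome 7 and held reads in RelBko. The promoter region (-57 bp, 20214655 to 20215034) fell from 11.9 to 4.18 RPKM, from 79 to 31 reads (ratio 0.352, 0.224 to 0.539). A region upstream of the Relb start, at -6094 bp (20220702 to 20221060), had 4.78 and 4.86 RPKM, from 30 and 34 reads (ratio 1.02, 0.604 to 1.72). A further upstream one at -10180 bp (20224790 to 20225145) fell from 5.62 to 2.16 RPKM. Both upstream regions carry the class intron, which there need not be an intron of Relb. The intronic region at 968 bp (20213585 to 20214053) had 5.49 and 3.06 RPKM. The weakest, at 10241 bp (20204383 to 20204710), was enriched at neither time, with 1.57 and 0.313 RPKM. Reads at the Relb gene show that its DNA was sequenced and do not check the deletion.

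Genes of the lists were read at their region of highest mean RelBko signal within 100 kb of the TSS, and the same was done for 18206 genes. Over all of them 51.9% were enriched at 0 h and 15.3% at 1 h, and of 9645 compared 4616 had fallen 2-fold or more by 1 h (47.9%) and 56 had risen, and the median log2 ratio was -0.98. The 5 NF-kB subunit genes were all enriched at 0 h and 2 of them at 1 h, 2 of 5 were lower, and their median was -0.99. The promoter of Nfkb2, which encodes p100 and p52 (-26 bp, chromosome 19, 46379024 to 46379378), had 14.3 and 7.22 RPKM (log2 -0.94). That of Rel, which encodes c-Rel (-279 bp, chromosome 11, 23670934 to 23671565), had 13.7 and 6.65 RPKM (log2 -0.99). Both were just under 2-fold on that scale. All 18 NF-kB feedback and adaptor genes were enriched at 0 h and 10 at 1 h, and 9 were lower, with a median of -0.99. Nfkbid, an IkB family gene (promoter, -161 bp, chromosome 7, 31207096 to 31207433), fell from 11.8 to 5.46 RPKM, and Nfkbiz, which encodes IkB-zeta (promoter, -221 bp, chromosome 16, 55838799 to 55839151), had 9.23 and 7.99 RPKM (ratio 0.865, 0.586 to 1.28). Lower members of both lists were near the share of all genes.

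Inflammatory cytokine and chemokine genes were enriched at 0 h in 25 of 29 measured and at 1 h in 16, with 8 of 26 compared lower and a median of -0.74. Il1a, which encodes interleukin 1 alpha (intergenic, -10264 bp, chromosome 2, 129145778 to 129146166), fell from 14.6 to 6.86 RPKM. Cxcl16, a chemokine gene (intergenic, -8047 bp, chromosome 11, 70281361 to 70281705), fell from 12.3 to 5.80 RPKM, and Ccl22, which encodes a chemokine that attracts regulatory T cells (intergenic, -10979 bp, chromosome 8, 97258425 to 97258785), fell from 12.2 to 4.83 RPKM. Interferon-stimulated genes were enriched at 0 h in 16 of 31 (51.6%), near the 51.9% of all genes, and at 1 h in 6, with 3 of 17 compared lower (median -0.79). Socs1, which encodes a feedback inhibitor of cytokine receptors (promoter, -39 bp, chromosome 16, 10785512 to 10785825), fell from 10.9 to 3.43 RPKM. Irf1, which encodes an interferon regulatory factor (promoter, -107 bp, chromosome 11, 53583207 to 53583611), had 7.91 and 4.05 RPKM (log2 -0.89).

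Dendritic cell maturation genes were enriched at 0 h in 26 of 28 and at 1 h in 18, with 8 of 26 lower and a median of -0.84. Cd83, a surface marker of mature dendritic cells (promoter, 38 bp, chromosome 13, 43880334 to 43880704), fell from 14.8 to 5.67 RPKM with WT RelB at 38.9 and 37.7 RPKM. Ccr7, which encodes the chemokine receptor for lymph node homing (intergenic, -13128 bp, chromosome 11, 99029327 to 99029711), fell from 14.6 to 3.86 RPKM, while Relt, a TNF receptor family gene (intron, 7411 bp, chromosome 7, 108004339 to 108004694), had 12.4 and 6.77 RPKM (log2 -0.82). All 26 immediate early genes were enriched at 0 h and 15 at 1 h, and 12 were lower, with a median of -0.97. Nr4a3, which encodes an orphan nuclear receptor (intergenic, -1997 bp, chromosome 4, 48056097 to 48056264), fell from 15.7 to 7.02 RPKM, and the region nearest to Ier3, a stress-response gene (intergenic, -8249 bp, chromosome 17, 35950170 to 35950648), fell from 15.2 to 5.25 RPKM. Dusp5, which encodes a phosphatase of ERK kinases (promoter, -350 bp, chromosome 19, 53603217 to 53603699), had 12.4 and 7.54 RPKM (log2 -0.69). Maturation and immediate early genes had no member 2-fold higher at 1 h.

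Survival and stress genes were enriched at 0 h in 15 of 18 measured, with 7 of 15 compared lower and a median of -0.89. Gadd45b, which encodes a growth arrest protein (intron, 492 bp, chromosome 10, 80393149 to 80393508), fell from 12.9 to 5.41 RPKM, and Sqstm1, which encodes the autophagy receptor p62 (intergenic, -2354 bp, chromosome 11, 50026494 to 50026859), had 10.5 and 5.75 RPKM (log2 -0.81). The Bcl2l11 region of highest mean signal had 14.0 RPKM in the input and was enriched at neither time. Of 27 myeloid and dendritic cell lineage genes 23 were enriched at 0 h and 11 at 1 h, and 10 of 23 compared were lower, with a median of -0.95. Runx3, which encodes a Runt family factor (intergenic, -50647 bp, chromosome 4, 134625735 to 134626091), had 16.7 and 8.76 RPKM (log2 -0.89). Zbtb46, a factor gene of classical dendritic cells (promoter, -80 bp, chromosome 2, 181194127 to 181194296), fell from 14.5 to 3.92 RPKM, and Flt3, which encodes the receptor for the dendritic cell growth factor Flt3 ligand (intron, 37258 bp, chromosome 5, 148174637 to 148174977), had 8.22 and 3.91 RPKM (log2 -0.98).

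Lists of genes outside immune pathways were enriched at 0 h in 48 to 63.2% of their members, against 51.9% of all genes. Their list medians of WT RelB at 0 h were 8.65 to 22.7 RPKM. Those of the cytokine, maturation and immediate early lists were higher, at 44.7 to 53.3 RPKM. Housekeeping genes were enriched at 0 h in 12 of 19 and at 1 h in 5, with 8 of 12 compared lower and a median of -1.19. Ppia, which encodes cyclophilin A (intron, 344 bp, chromosome 11, 6316043 to 6316391), fell from 9.18 to 4.11 RPKM, and Pgk1, which encodes a glycolytic kinase (promoter, -198 bp, chromosome X, 103382065 to 103382418), fell from 9.69 to 3.19 RPKM. Cytosolic ribosomal protein genes were enriched at 0 h in 12 of 25 and at 1 h in 1, with 7 of 12 lower (median -1.07). Rps19 (promoter, -480 bp, chromosome 7, 25669047 to 25669216) fell from 9.08 to 3.02 RPKM, Rpl23 (promoter, -69 bp, chromosome 11, 97643625 to 97644019) fell from 8.40 to 2.86 RPKM, and Rpl18 (promoter, -2 bp, chromosome 7, 52973266 to 52973613) fell from 7.07 to 3.09 RPKM. WT RelB at these 3 promoters was 10.3 to 17.1 RPKM at 0 h. Of 10 CTCF, cohesin and insulator genes 5 were enriched at 0 h and 1 at 1 h, with 1 of 5 lower. Ctcf, which encodes the insulator protein (intron, 299 bp, chromosome 8, 108160653 to 108160822), had 7.40 and 3.92 RPKM.

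Genes that mark other blood lineages gave fewer regions with signal, except those of T and NK cells. Enriched at 0 h were 3 of 12 neutrophil, 2 of 10 B cell, 8 of 12 T and NK cell and 2 of 7 erythroid and mast cell genes, against 51.9% of all genes. The highest of each by mean RelBko signal were Ltf, which encodes lactoferrin (5.14 and 1.54 RPKM), Cd79b, a B cell receptor gene (2.99 and 1.34 RPKM), Klrb1c, which encodes NK1.1 (9.08 and 2.11 RPKM), and Kit, which encodes the stem cell factor receptor (3.01 and 1.65 RPKM). Median RelB signal of these lists in WT at 0 h was 2.81, 3.85, 20.6 and 2.13 RPKM, so the T and NK cell list was also the highest in WT. Expression was not measured, so these values do not check the labelled cell type. Over all 15 lists 82 of 200 compared entries were lower and 0 were higher, and with the median of all compared regions set to 0 these were 5 and 4.

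**Figure D5:**
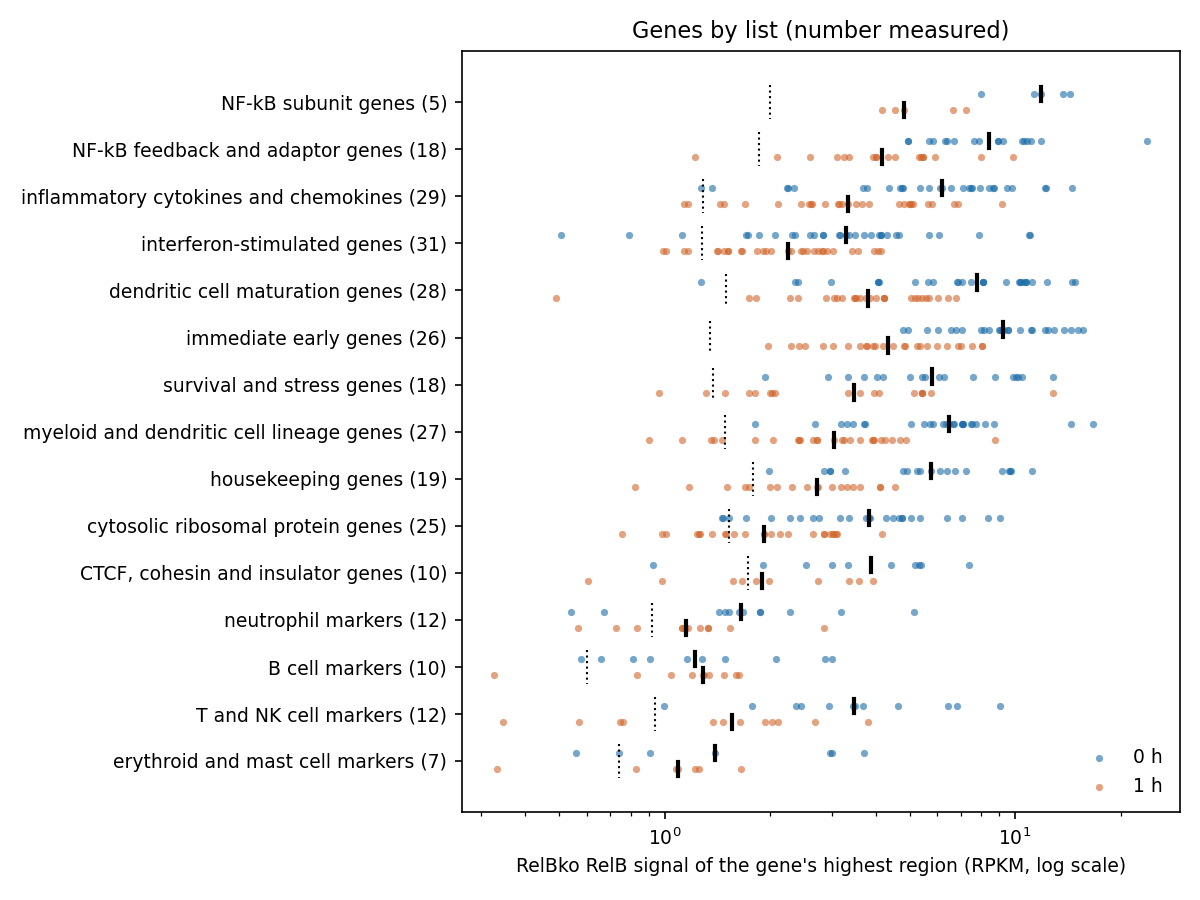
RelBko RelB signal at 0 h (blue) and 1 h (orange) of each measured gene, at its region of highest mean signal (x axis, RPKM, log scale), by gene list. Thick bars are list medians and dotted lines the input median. The medians of 0 h lie above those of 1 h in each list except the B cell markers, where they were 1.22 and 1.29 RPKM.

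Many of the largest changes lay at regions of 168 or 170 bp. Of 286 regions of 168 bp, 84.3% were enriched in RelBko at 1 h, and of 1810 regions of 170 bp, 90.9% were enriched at 0 h. Regions of 168 bp gave 85 of the 202 higher regions, and regions of 170 bp gave 1211 of the lower and 1 of the higher, with a median of -1.40. They also gave 80 of the 98 regions 2-fold above WT RelB at 1 h (168 bp) and 289 of the 361 at 0 h (170 bp). RelBko RelB at 1 h was the highest ChIP library at 33.6% of the 168 bp regions, and RelBko RelB at 0 h at 21.0% of the 170 bp regions, where RelA in RelBko was most often highest (25.9%). Regions of 308 bp were most often highest in WT RelB at 0 h (78.3% of 6461) and those of 314 bp in WT RelB at 1 h (78.7% of 6007). How the regions were formed is not given in the sources used here, and if a region's bounds came from peaks of the library in which it is high, its difference is partly chosen. Without both lengths, 9097 of 21509 compared regions were lower, 116 were higher and the median was -0.91.

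Among regions within 10 kb of a TSS and of 4 RPKM or more, the largest falls after Mybpc3 were at 7 regions of 170 bp. Slc15a3, a peptide transporter gene of endosomes (promoter, -705 bp, chromosome 19, 10916245 to 10916414), fell from 13.5 RPKM (40 reads) to 0.905 RPKM (3 reads), a ratio of 0.0673 (0.0133 to 0.211), with 3.57 RPKM in the input. Zfp36l2, which encodes an RNA-decay factor (exon, 862 bp, chromosome 17, 84586341 to 84586510), fell from 22 reads to 1. Tnfaip3, which encodes the NF-kB inhibitor A20 (intron, 3146 bp, chromosome 10, 18728539 to 18728708), fell from 25 reads to 2, with WT RelB at 63.4 and 31.9 RPKM. Ndufb7, Tmem115, Cdc27 and Ltb4r1 fell from 17 to 30 reads to 1 or 2. At 1 h these 7 regions lay below their input values.

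Rises were fewer and rested on fewer reads. The 202 higher regions were 107 intergenic, 84 intronic, 2 promoter and 9 other regions, with a median of 4 reads at 0 h and 16 at 1 h. All 23402 compared regions were 7497 intergenic, 8915 intronic, 5430 promoter and 1560 other regions. H2-M10.3, a nonclassical MHC class I gene (promoter, -533 bp, chromosome 17, 36505812 to 36505979), rose from 0.681 RPKM (2 reads) to 7.02 RPKM (23 reads), a ratio of 10.3 (2.55 to 90.2). Ctla4, which encodes an inhibitory T cell receptor (class TTS, transcription end, 7741 bp, chromosome 1, 60973527 to 60973694), rose from 2 to 17 reads, and Trim35, a ubiquitin ligase gene (intergenic, -4727 bp, chromosome 14, 66911052 to 66911219), from 2 to 15 reads. Dusp22, a phosphatase gene (intergenic, -5386 bp, chromosome 13, 30746459 to 30746626), rose from 1.36 to 5.80 RPKM with WT RelB at 40.6 and 75.0 RPKM. The Gm11110 region (intergenic, -5582 bp, chromosome 17, 57250784 to 57251111) rose from 0.872 to 4.07 RPKM (ratio 4.66, 1.76 to 15.5), with WT RelB at 2.35 and 25.4 RPKM. Tmem89, Khdc3 and Clasp2 completed the 8 largest, from 2 to 6 reads at 0 h to 14 to 33 reads at 1 h. WT RelB rose 2-fold or more at Gm11110 and at Trim35 (4.58 and 13.4 RPKM), while at H2-M10.3, Tmem89 and Clasp2 it was under 2 RPKM at both times.

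A pair of single regions stood far outside this range. An exon region of Mybpc3, a cardiac myosin-binding protein gene (2216 bp, chromosome 2, 90960354 to 90960681), had 128 RPKM (734 reads) in RelBko at 0 h and 1.09 RPKM (7 reads) at 1 h, with 1.22 to 2.55 RPKM in the other ChIP libraries and 1.16 RPKM in the input. The nearest regions, which start at -7772 bp and 5284 bp from its start, had 3.51 and 0.846 RPKM at 0 h. A 168 bp region in an intron near Fam172a (-269734 bp, chromosome 13, 77578134 to 77578301) had 89.2 RPKM (262 reads) at 0 h and 2803 RPKM (9182 reads) at 1 h, with 78.5 RPKM in the input, 555 RPKM for RelA in RelBko and 41.8 and 48.2 RPKM for RelB in WT. Its neighbours were at 1.98 RPKM or less in both RelBko RelB libraries. Mybpc3 was thus high in 1 library of 7, and the Fam172a region was high in all 7.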

How the data were processed

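Binding was measured by ChIP-seq in BMDCs. RPKM values were calculated by the authors, per the file headers, for 7 libraries over 93611 regions, and the deposited table also gives class, nearest gene and distance to a TSS. HISAT2, HOMER, bedtools and mm9 are named in the submitters' processing notes; their versions and roles, and how regions were chosen, are not stated in these sources. A deposited list of the same regions was not used. Reads were recovered as RPKM times length over the smallest product in a library (whole within 0.01 for 100% of values), and coordinates count from 1. The labels' treatment text also names a CpG oligonucleotide product; LPS follows the labels of the samples.

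Ratios are log2(RPKM + 0.5), which understates changes of weak regions. Enriched means 2 RPKM or more and 2-fold over input; regions enriched at either time were compared, and 2-fold was called. Genes were represented by their region of highest mean RelBko signal within 100 kb. Named are 3 members per list, the 10 highest regions and genes of each library, the 8 largest changes near a TSS in each direction, the 5 largest at any distance, the 8 highest over WT RelB and the regions of Relb, of which the text gives the main ones and some are not reported here; promoter sequences and regions set apart by length or input were chosen after their values were seen. Members and lists were chosen with earlier results of these data known. Functions were tested on simulated data. Python 3.11.15, numpy 2.4.6, pandas 2.3.3, scipy 1.17.1 and matplotlib 3.10.9 were used. Alternatives varied scaling, pseudocount, limits, input use and the region that stands for a gene.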

Additional observations from a re-analysis of the deposited data

Results flagged for a closer look

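With LPS, the summed RelB antibody signal was higher in WT and lower in RelBko on the deposited scale. The share of reads in the regions was 3.96 percentage points higher at 1 h than at 0 h in WT and differed by -2.79 percentage points in RelBko. The median log2 ratio of 1 h to 0 h over all 93611 regions was 0.14 in WT and -0.43 in RelBko. Single regions often went otherwise: 39.2% were below 0 in WT and 74.0% in RelBko, and 43.4% were higher in WT and lower in RelBko. Each group held 1 library, and the difference between the genotypes was not tested.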

How the results depend on the processing

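No paired analysis was possible because each group held 1 library. Enriched regions at 0 h and 1 h numbered 11646 and 1457 at 4 RPKM, and 4431 and 433 at 4-fold over input, and at 1 h 3880 with a pseudocount of 1; the other alternatives kept both counts within 1.5 times. Lower and higher regions numbered 667 and 1249 with the median ratio set to 1 (median log2 0), 6547 and 113 with a pseudocount of 1 (-0.85), 15745 and 414 with input subtracted (-1.36), 6462 and 60 at 4 RPKM (-1.05), 2660 and 40 at 4-fold over input (-1.09), 16922 and 1490 with no filter (-0.43), 17631 and 501 called at 1.5-fold, and 524 and 22 called at 4-fold. Leaving out regions of 168 and 170 bp, an alternative chosen after seeing the data, gave 116 higher (-0.91). The median was -1.03 when scaled on unenriched regions, -0.99 with a pseudocount of 0.25 and -0.96 with 1 read taken off, and leaving out regions of 8 RPKM or more in the input, also chosen after seeing the data, gave 10315 lower and 201 higher. Except with the median set to 1, lower regions outnumbered higher ones in each alternative run.

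The promoter share was 30.9% and 23.8% at 4 RPKM (0 h, then 1 h), 25.1% and 17.8% at 4-fold, and 32.8% and 27.8% within 1 kb of a TSS, against 15.7% of all regions so defined; at 1 h it was 21.3% with 1 read taken off. 

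Residual signal over WT-enriched regions was 11.2% and 3.17% with 1 read taken off, 17.6% and 9.75% without input subtraction, and 21.0% and 4.55% when scaled on unenriched regions. By bins of rising WT RelB, from under 5 to above 100 RPKM, it was 45.8%, 26.9%, 21.0%, 14.0%, 9.11% and 6.48% at 0 h and 31.8%, 15.4%, 10.7%, 7.99%, 5.13% and 4.29% at 1 h without subtraction. Scaled on unenriched regions it was 57.1%, 29.7%, 26.2%, 18.6%, 12.8% and 9.45% at 0 h, and at 1 h 6.42% under 5 RPKM and 4.35%, 6.55%, 5.06% and 4.98% from 10 RPKM up. With 1 read taken off, the bins up to 100 RPKM gave 21.0%, 14.4%, 13.7%, 10.2% and 7.18% at 0 h and 6.86%, 1.82%, 3.08%, 4.05% and 3.08% at 1 h, and leaving out the Fam172a region, chosen after seeing the data, gave 3.11% at 20 to 50 RPKM.

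Over all lists, 5 entries were lower and 4 higher with the median ratio set to 1, and 28 were lower with all regions of a gene averaged, where 129 entries were compared. With the median ratio set to 1, list medians turned to 0.19 (cytokines), 0.14 (interferon-stimulated), 0.087 (maturation), 0.035 (survival), 0.33 (CTCF and cohesin), 0.19 (neutrophil) and 0.17 (B cell). Then 1 entry each was lower among feedback, maturation, immediate early and T and NK cell genes, and 0 in the other lists except CTCF and cohesin, which kept its count of 1. Scaled on unenriched regions, 4 subunit, 7 interferon-stimulated and 1 B cell genes were lower; with a pseudocount of 0.25, 5 interferon-stimulated and 1 B cell; with a pseudocount of 1, 5 cytokine and 4 ribosomal protein genes. With the highest region within 10 kb, 4 cytokine, 4 maturation, 17 lineage, 2 neutrophil and 3 T and NK cell genes were lower. With regions averaged, 6 immediate early, 4 housekeeping, 3 T and NK cell, 2 feedback and 2 lineage genes were lower, 1 each of the subunit, cytokine and maturation genes, and 0 interferon-stimulated, survival and neutrophil genes. Of 107 named regions, 34 fell under 2-fold with the median ratio set to 1 and 6 with a pseudocount of 1. The cause of these shifts was not tested. Depth limits weak regions: the median was 8 reads per region at 1 h and 4 in the input, so changes there rest on few reads.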

Other observations

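A run of 13 adjacent regions from Abr to Bhlha9 (chromosome 11, 76386348 to 76442464, mm9) was high in the input (median 27.6 RPKM) and differed between the RelBko libraries, with medians of 5.28 RPKM at 0 h and 44.0 RPKM at 1 h, and a ratio of 4.11 to 10.0 in each region. The 0 h library lay at 0.183 times the input (median) and the 1 h library at 1.59 times, so no region there was enriched. RelB in WT had a median ratio of 1.13 between 1 h and 0 h over the same regions. Although the regions were 170 to 449 bp long, each held 294 to 311 reads at 1 h and 125 to 137 reads in the input. A second run of 8 regions at E030024N20Rik (chromosome 19, 16223586 to 16253952) had medians of 4.51 and 31.3 RPKM in RelBko and 22.8 RPKM in the input. There, 4 regions of 308 to 547 bp held 501 to 514 reads each at 1 h and 241 to 243 in the input. These runs hold 21 of the 30 regions with 8 RPKM or more in the input, and they were chosen after their values were seen.

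Regions where RelBko exceeded WT RelB the most, after Mybpc3 and Fam172a, rested on few reads. At 0 h the regions near Lgalsl and Endou each held 15 reads, 5.05 RPKM, against 0.168 RPKM for RelB in WT, and were 170 bp long. At 1 h the region near Esco1 held 20 reads, 6.11 RPKM, against 0.209 RPKM in WT, and those near Olfr16 and 4933412E24Rik each held 17 reads, 5.19 RPKM, against 0.209 RPKM in WT, and all 3 were 168 bp long.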
